A study of Mus musculus with 2 samples.

Results

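*Arhgap26*, *Arhgap10* and *Arhgap42* encode the GRAF-type GTPase-activating proteins (RhoGAPs), and they are 3 of the 32285 genes counted in these files. They were matched by gene symbol and were selected on a readout of the same cells, because *Arhgap26* is higher in the knockout library, so its difference between the libraries is given as a description. Cajal-Retzius (CR) cells of the hippocampus of P14 mice (postnatal day 14) were sorted as live tdT-expressing cells and profiled by single-cell RNA-sequencing. The control library pooled 4 *ΔNp73-Cre; Cic* flox/+; *tdT* mice (3 males and 1 female), and the knockout library pooled 4 of their littermates with the genotype *ΔNp73-Cre; Cic* flox/flox; *tdT* (2 males and 2 females). The controls therefore also carried the Cre and the tdT reporter, and they had lost 1 allele of *Cic* wherever Cre acted. *ΔNp73-Cre* acts in CR cells that arise from the cortical hem, and the study describes the deletion as incomplete. Each genotype was 1 library, so no difference between genotypes has a replicate check and no p-value is given.

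GRAF proteins carry a BAR domain that binds curved membranes, a PH domain, a RhoGAP domain that makes small GTPases of the RhoA family hydrolyse GTP and so switches them off, and an SH3 domain. *Arhgap26* encodes GRAF1, named for its binding to focal adhesion kinase, *Arhgap10* encodes GRAF2 and *Arhgap42* encodes GRAF3. RhoA and Cdc42 are their usual substrates, through which they act on actin, adhesion and endocytosis. CR cells are early-born, reelin-secreting neurons of the marginal zone, most of which die in the first postnatal weeks. *Cic* encodes Capicua, an HMG-box repressor whose known targets include the ETS factor genes *Etv4* and *Etv5*.

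The family was measured in barcodes with at least 2000 unique molecular identifiers (UMIs, each standing for 1 captured RNA molecule) and at least 5 *Reln* UMIs, which gave 1003 control cells and 390 knockout cells. Cells held a median of 6224 UMIs (control) and 6664 UMIs (knockout), and the libraries shared 0 cell barcodes. All 9 CR markers checked had a UMI in at least 26.7% of control and 35.9% of knockout cells. Of 37 markers of other cell types, 2 (*Cspg4* and *Rgs5*) were in over 25% of cells in both libraries, 7 had no UMI among control and 17 none among knockout cells. CPM below is the sum of a gene's UMIs over a group of cells per 1000000 UMIs outside mitochondrial and ribosomal genes. The summed level of a marker list of another cell type was at most 116 CPM for control and 105 CPM for knockout cells, against 14996 and 14556 CPM for the CR list. Of the CR sums, *Reln* alone made up 8176 CPM in control and 7873 CPM in knockout cells. The cell filter required *Reln*, so that part of the contrast was fixed in advance. *Cic* itself differed little in RNA, at 58.9 CPM for control and 51.3 CPM for knockout cells (ratio 0.871, 0.714 to 1.06), and a count at the 3′ end need not cover the deleted exons. Known targets of Capicua were far apart, with *Etv4* at 1.97 and 70.9 CPM and *Etv5* at 15 and 70.9 CPM.  Ratios are of these sums, with exact 95% intervals that cover counting error only and not differences between cells, mice or libraries. Each UMI was taken as independent, so the intervals are too narrow where cells of a group differ in level. Differences called resolved, and intervals said to overlap or not, refer to these intervals alone.

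*Arhgap26* (ENSMUSG00000036452, chromosome 18, 38993145 to 39376284, + strand, GRCm38) gave 318 UMIs in the control and 256 in the smaller knockout library. This was 48.2 CPM (43.0 to 53.8) in control cells and 92.6 CPM (81.6 to 105) in knockout cells, a ratio of 1.92 (1.62 to 2.27). The intervals of the libraries did not overlap, which is no support for the difference, since *Arhgap26* was chosen for it. An *Arhgap26* UMI was found in 196 of 1003 control cells (19.5%) and in 153 of 390 (39.2%) from the knockout. With cells thinned to an equal 2000 UMIs, the shares were 7.88% (6.29 to 9.72) and 15.4% (12 to 19.4). The extra UMIs were not held by a few cells, since cells with 1 UMI, with 2 and with 3 or more all took larger shares in the knockout. They were uneven over groups of knockout cells, as given below. The most UMIs in any cell were 8 for control and 7 for knockout cells, and the ratio without the highest cell of each library was 1.92.

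*Arhgap42* (ENSMUSG00000050730, chromosome 9, 8994329 to 9239101, − strand) lay the other way, with 306 control UMIs (46.4 CPM) and 102 knockout UMIs (36.9 CPM). Its ratio was 0.796 (0.630 to 0.999), an interval that barely left out 1. A UMI was found in 214 control cells (21.3%) and 80 knockout cells (20.5%). In a single random draw of cells thinned to 2000 UMIs the shares were 10.3% (8.46 to 12.3) and 5.64% (3.57 to 8.42). These intervals leave out the error of the draw, and with each cell weighted equally the ratio of *Arhgap42* was 0.798. *Arhgap10* (ENSMUSG00000037148, chromosome 8, 77250366 to 77517953, − strand) was sparse, with 59 UMIs in 46 control cells and 19 UMIs in 16 knockout cells. It stood at 8.94 and 6.87 CPM, and its ratio of 0.769 (0.433 to 1.31) left its direction undecided at this depth.

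Of the 3 members, *Arhgap26* and *Arhgap42* reached the 100 UMIs over both libraries that a gene needed to enter counts of genes, and *Arhgap10*, at 78, did not. A gene was called different when its ratio passed 1.5-fold in either direction. *Arhgap26* was the called member, which its choice fixes. *Arhgap42* was not called. Among the 9442 genes that reached 100 UMIs, 2.73% were called higher and 1.66% lower in the knockout, and the median ratio was 1.00. The interval lay wholly above 1 for 10.9% of them and wholly below 1 for 9.43%, so an interval like that of *Arhgap42* is common. With a size factor in place of the UMI total, calls divided into 204 higher and 203 lower genes, against 258 and 157 here, and *Arhgap26* stood at 1.87.

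**Figure D1:**
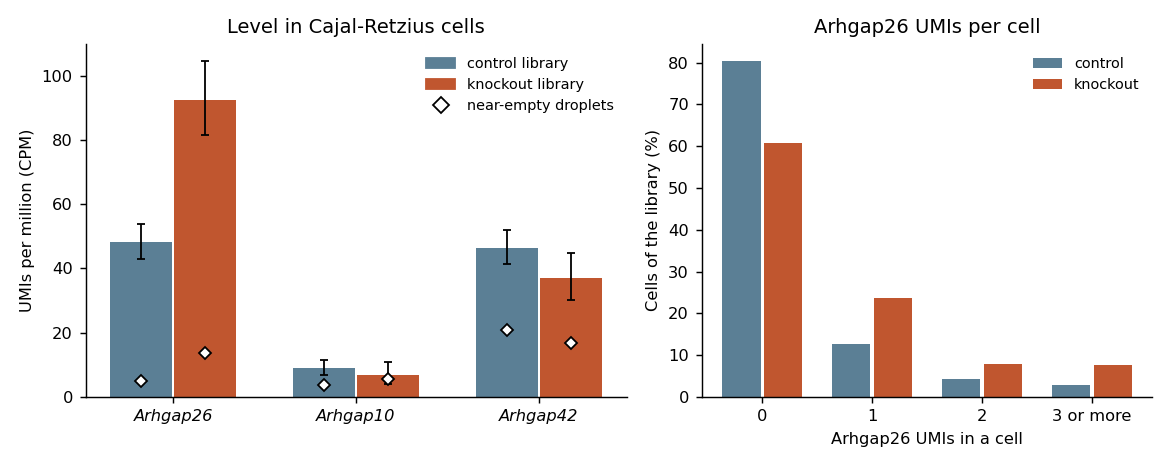
Left, level of each gene in CPM in control and knockout CR cells, with exact 95% counting intervals as bars and the level in near-empty droplets of the same library as diamonds. Right, share of cells in percent with 0, 1, 2 or 3 or more *Arhgap26* UMIs, where cells without one fall from 80.5% in the control to 60.8% in the knockout.

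Free RNA was read from near-empty droplets of 20 to 100 UMIs, 29040 in the control and 75813 in the knockout, since the sort left no other cell type for the purpose. *Arhgap26* reached 5.05 CPM in droplets of the control and 13.5 CPM in those of the knockout, below its level in cells in both libraries, and 0.0344% and 0.0528% of droplets held a UMI. *Arhgap42* was at 20.7 and 16.8 CPM in droplets. *Arhgap10* had 3.67 CPM in droplets of the control and 5.59 CPM (3.26 to 8.96) in those of the knockout, which includes its level in knockout cells. The droplets held 2506311 UMIs in the control and 3446311 in the knockout, so their shares are not at equal depth. Subtracting droplet UMIs left *Arhgap26* at a ratio of 1.91 and *Arhgap42* at 0.793. It left 317.6 of 318 control and 255.8 of 256 knockout UMIs of *Arhgap26*, so its ratio could hardly move.

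The pools differed in sex, so the ratio was taken again in cells with UMIs of Y-linked genes only (702 control and 194 knockout cells) and in cells with *Xist* UMIs only (227 and 176). *Arhgap26* had a ratio of 1.67 (1.32 to 2.10) in the former and 2.45 (1.80 to 3.37) in the latter, so it was higher in the knockout in both, with intervals that overlapped. *Arhgap42* stood at 0.902 (0.664 to 1.21) and 0.727 (0.480 to 1.09). *Arhgap10* was at 1.04 (0.494 to 2.03) in cells with Y-linked UMIs and 0.370 (0.121 to 0.963) in those with *Xist*, on 25 UMIs in the latter. By the labels the control pool held 1 female, so its cells with *Xist* came from 1 mouse, and those of the knockout from 2. Apart from that, mice of a sex could not be told apart.

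Knockout cells were next split by whether they held a UMI of *Etv4* or *Etv5*, the transcripts that mark cells in which Capicua targets are expressed. In the knockout 162 of 390 cells (41.5%) held such a UMI, and in the control 87 of 1003 (8.67%). *Arhgap26* gave 168 UMIs in the positive knockout cells and 88 in the 228 negative ones, or 137 CPM (117 to 159) against 57.2 CPM (45.9 to 70.5). The ratio was 2.39 (1.84 to 3.13), and 3.02% of the 5226 genes with at least 100 knockout UMIs were higher by 1.5-fold in this split. That share does not allow for the choice of *Arhgap26* by its level in the knockout. Positive cells were somewhat deeper, with a median of 7266 UMIs against 6210, and with cells thinned to 2000 UMIs the ratio was 2.76 (1.61 to 4.84). The negative knockout cells had a ratio of 1.19 (0.927 to 1.51) over all control cells, which include positive ones. Their ratio over negative control cells is given below.

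The same split in the control gave *Arhgap26* at 74.9 CPM in positive and 45.2 CPM in negative cells, a ratio of 1.66 (1.20 to 2.25) and 3.07% of 8304 genes were at least 1.5-fold higher in positive cells. The ratio in the knockout over that in the control was 1.44 (0.952 to 2.19), so a larger split in the knockout was not resolved. Between the libraries, *Arhgap26* was 1.83-fold (1.32 to 2.56) higher in positive cells and 1.27-fold (0.985 to 1.62) in negative cells. *Arhgap42* and *Arhgap10* showed no resolved difference in this split. *Arhgap42* was at 34.2 CPM in positive and 39.0 CPM in negative knockout cells (ratio 0.876, 0.576 to 1.32), and *Arhgap10* had 8 and 11 UMIs (0.910, 0.318 to 2.48).

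*Arhgap26* lies beside *Fgf1*, which encodes a fibroblast growth factor, and 2 long non-coding RNA genes. By GENCODE M21, 9630014M24Rik (38601534 to 38789045, + strand), *Fgf1* (38838673 to 38929472, − strand) and *Gm5820* (38892458 to 38971276, + strand) precede it in that order, and 21.9 kb separates the end of *Gm5820* from *Arhgap26*. 9630014M24Rik had 3 control and 289 knockout UMIs (ratio 230, 77.9 to 1121), *Gm5820* had 4 and 115 (68.6, 26.1 to 256) and *Fgf1* had 19 and 122 (15.3, 9.41 to 26.3). Upstream of these, *Spry4*, which encodes an inhibitor of receptor tyrosine kinase signalling, had 1 control and 24 knockout UMIs and was not counted among tested genes. On the other side, *Nr3c1*, the glucocorticoid receptor gene 34.3 kb downstream, had a ratio of 1.07 (0.886 to 1.29).

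Of 27 other genes within 1 Mb of *Arhgap26*, 9 reached 100 UMIs, and the 3 above were past 1.5-fold. These 3 reached 100 UMIs only through the knockout, where they are high, so the filter fixed that they were called. The other 6 were *Dele1* (1.08), *Rnf14* (1.15), *Ndfip1* (1.14), *Nr3c1*, *Yipf5* (1.01) and *Kctd16* (1.29). Around *Arhgap10* none of 5 tested neighbours passed 1.5-fold (ratios 1.03 to 1.34), and around *Arhgap42* none of 4 did (0.866 to 1.08). Over all tested genes 2.73% were called higher and 1.66% lower. With so few neighbours, no call is the usual outcome and is not a contrast with *Arhgap26*. Of the genes with fewer UMIs, *Spry4* had a ratio of 57.3 (9.34 to 2356) and 1700086O06Rik, on 42 control and 38 knockout UMIs, had 2.16 (1.36 to 3.43).

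**Figure D2:**
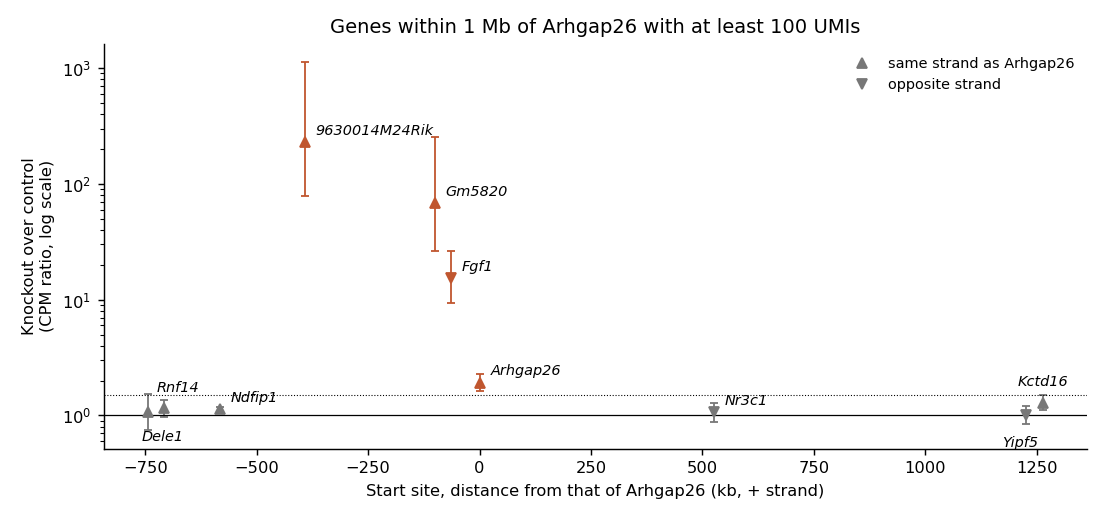
Ratio of knockout over control on a log scale against the distance of each gene's start site from that of *Arhgap26* in kb, for *Arhgap26* and the 9 tested genes within 1 Mb, with exact 95% counting intervals. The 3 genes upstream have ratios from 15.3 to 230 and *Arhgap26* is at 1.92. The 6 genes with farther start sites stay below the dotted line at 1.5. Among them is *Nr3c1*, whose gene body lies only 34.3 kb from that of *Arhgap26*.

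How these transcripts were separated matters for the count of *Arhgap26*. Its GENCODE exons share 0 bases with those of *Fgf1*, *Gm5820* or 9630014M24Rik. A second GENCODE gene model of the same name (ENSMUSG00000118193, 38676718 to 39110534, + strand), which is not among the identifiers of the files, has 570 exon bases, of which 310 lie in *Arhgap26*, 172 in *Gm5820* and 88 in 9630014M24Rik exons. The RefSeq model of *Arhgap26* on the same build (GRCm38.p6) starts at 38601617, next to the start of 9630014M24Rik, and so spans the whole group. UMIs of transcripts that begin in the upstream genes and end in *Arhgap26* could not be told apart here from those that begin at its GENCODE start. The antisense gene *Gm15336* within *Arhgap26* had 16 control and 19 knockout UMIs. In the smaller knockout library this was 6.87 CPM against 2.42 CPM in the control, a ratio of 2.83 (1.38 to 5.89).

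The cells that held UMIs of the neighbours were also those with more *Arhgap26*. This is a description, since *Arhgap26* was chosen for its level in the knockout and the neighbours passed the UMI filter only through that library. The share over all genes given below does not allow for that choice. Of the 390 knockout cells, 168 had a UMI of *Fgf1*, *Gm5820* or 9630014M24Rik, and 76.8% of these were positive for *Etv4* or *Etv5*, against 14.9% of the other 222. *Arhgap26* had 178 UMIs or 140 CPM in the 168 cells and 78 UMIs or 52.1 CPM in the others, a ratio of 2.70 (2.05 to 3.56), with 2.89% of genes higher by 1.5-fold. Split by each gene alone, the ratio was 2.58 (1.99 to 3.34) for 9630014M24Rik, 1.71 (1.30 to 2.22) for *Fgf1* and 1.67 (1.28 to 2.18) for *Gm5820*. The cells positive for any of the 3 had a median of 7024 UMIs and the others 6313, and in thinned cells the ratio was 2.26 (1.34 to 3.92). *Arhgap42* was at 37.9 and 36.0 CPM in the same groups (ratio 1.05, 0.697 to 1.58), and *Arhgap10* had 7 and 12 UMIs (0.689, 0.230 to 1.90).

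Crossing both splits, a division chosen after the values were seen, gave 4 groups of knockout cells. *Arhgap26* was at 137 CPM (116 to 162) in the 129 cells positive in both, 133 CPM (87.8 to 194) in the 33 cells positive for *Etv4* or *Etv5* alone and 153 CPM (108 to 211) in the 39 cells positive for the neighbours alone. It was at 39.4 CPM (29.3 to 51.8) in the 189 cells negative in both. The 3 positive groups overlapped in their intervals. The doubly negative cells had a ratio of 0.817 (0.596 to 1.10) over all control cells, against 2.85 (2.32 to 3.49) for the doubly positive ones. Control cells were not divided in this way, so split knockout cells are set here against unsplit controls. In thinned cells the 4 levels were 144, 128, 81.4 and 44.8 CPM, of which the third rests on 6 UMIs. *Arhgap42* lay between 34.1 and 53.7 CPM in the 4 groups, with overlapping intervals.

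**Figure D3:**
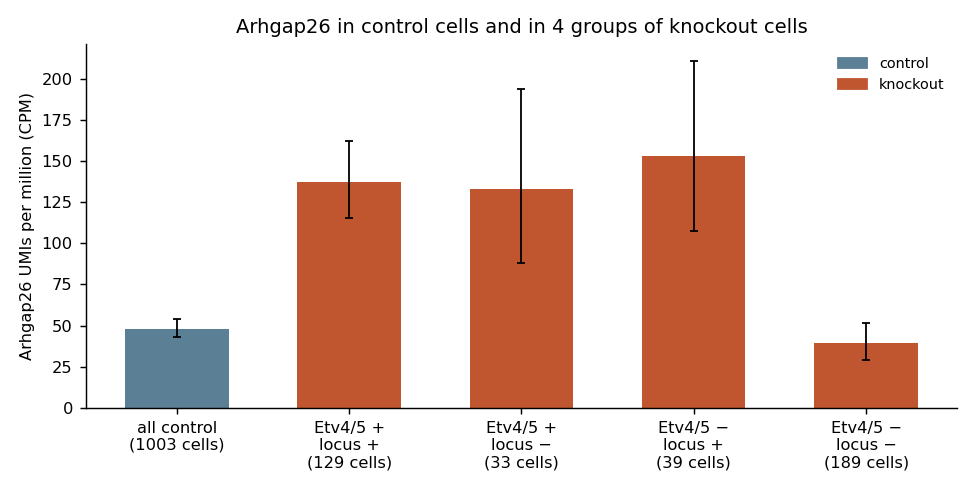
*Arhgap26* in CPM in all control cells and in knockout cells with (+) or without (−) a UMI of *Etv4* or *Etv5* and of the neighbouring genes *Fgf1*, *Gm5820* and 9630014M24Rik (locus), with exact 95% counting intervals. The 3 groups positive for either are at 133 to 153 CPM and the 189 cells negative for both are at 39.4 CPM. All control cells, which were not split, are at 48.2 CPM.

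*Cck*, *Grik1* and *Chst8* or *Alkal2* were used as markers of subsets of CR cells, and a cell counted as positive from 1 UMI. *Cck* encodes the neuropeptide cholecystokinin, *Grik1* a kainate receptor subunit, *Chst8* a carbohydrate sulfotransferase and *Alkal2* a ligand of ALK and LTK receptors. In the control, *Arhgap26* differed between these subsets. It had 28 UMIs or 20.3 CPM (13.5 to 29.4) in the 194 cells with *Grik1* and 290 UMIs or 55.5 CPM (49.3 to 62.3) in the 809 without, a ratio of 0.366 (0.239 to 0.540), and 4.58% of 8304 genes were lower by 1.5-fold in this split. It was at 65.5 CPM in the 232 cells with *Chst8* or *Alkal2* and 42.5 CPM in the others (1.54, 1.21 to 1.95), with 2.08% of genes at least 1.5-fold higher. With and without *Cck* it was at 47.6 and 48.5 CPM (0.983, 0.773 to 1.25).

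In the knockout the differences by *Grik1* and by *Chst8* or *Alkal2* were not seen. *Arhgap26* had 51 UMIs or 95.1 CPM (70.8 to 125) in the 70 cells with *Grik1* and 205 UMIs or 91.9 CPM (79.8 to 105) in the 320 without, a ratio of 1.03 (0.746 to 1.41), beside 2.62% of genes higher by 1.5-fold. It was at 93.6 and 92.2 CPM in cells with and without *Chst8* or *Alkal2* (1.02, 0.761 to 1.34). It was lower in cells with *Cck*, at 72.9 against 100 CPM (0.726, 0.532 to 0.977), though in thinned cells this ratio was 0.980 (0.535 to 1.72).

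The ratio of *Arhgap26* between the libraries thus ran from 1.43 to 4.68 over the subsets. It was 4.68 (2.90 to 7.71) in cells with *Grik1* and 1.66 (1.38 to 1.99) in those without, intervals that did not overlap. It was 1.43 (1.04 to 1.95) in cells with *Chst8* or *Alkal2* and 2.17 (1.77 to 2.66) in those without, and 1.53 (1.09 to 2.12) and 2.07 (1.70 to 2.53) in cells with and without *Cck*. The ratio in cells with *Chst8* or *Alkal2* over that in the others was 0.659 (0.452 to 0.958), and for *Cck* it was 0.738 (0.498 to 1.09). For *Grik1* it was 2.83 (1.68 to 4.81). A value of at least 1.5 was found for 11.2% of the 9442 genes, many of them with few UMIs in so small a group, and a value at least as large as that of *Arhgap26* for 0.763%. Among the 5566 genes with at least 300 UMIs, 3 reached it, *Bcl2l11* (4.11), *Gm16189* (4.03) and *Arhgap26*, named here after their values were seen. These shares do not allow for the choice of *Arhgap26* by its level in the knockout. Nor do they allow for *Grik1* being the split with its largest ratio of ratios, so its standing among genes is a description.

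This difference rests on few molecules. In cells thinned to 2000 UMIs it was 1.29 (0.416 to 3.89), on 8 knockout and 10 control UMIs in *Grik1* cells, and with each cell weighted equally it was 3.26. With 2 *Grik1* UMIs required for a positive cell it was 3.84 (1.91 to 8.06), and in cells without *Etv4* or *Etv5* UMIs it was 4.17 (2.04 to 8.45). *Etv4* or *Etv5* UMIs were found in 44.3% of knockout cells with *Grik1* and 40.9% of those without, shares whose intervals overlapped. The marker itself was lower in the knockout, at 48.1 CPM against 79.7 CPM in the control (ratio 0.604, 0.495 to 0.731). In cells with *Chst8* or *Alkal2* over the others, *Grik1* had a ratio of 0.284 in the control and 0.838 in the knockout. Whether cells with *Grik1* were the same subset in both libraries was not tested. In the knockout, *Fgf1* was at 70.8 CPM (50.1 to 97.2) in *Grik1* cells and 37.7 CPM (30.1 to 46.6) in the others, *Gm5820* at 48.5 and 39.9 CPM and 9630014M24Rik at 142 and 95.5 CPM.

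*Arhgap42* was level across the subsets. Its CPM lay between 44.7 and 49.4 in the 6 control groups and between 32.9 and 44.7 in the 6 knockout groups, and every ratio of positive over negative cells had an interval that included 1. Its ratio between the libraries ran from 0.738 to 0.949, and the interval left out 1 in cells without *Grik1* (0.758, 0.580 to 0.983). *Arhgap10* had at most 20 UMIs in a positive group, and none of its ratios was resolved. It stood at 11.0 CPM in control cells with *Chst8* or *Alkal2* and at 5.08 CPM in those with *Grik1*, with intervals that overlapped.

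**Figure D4:**
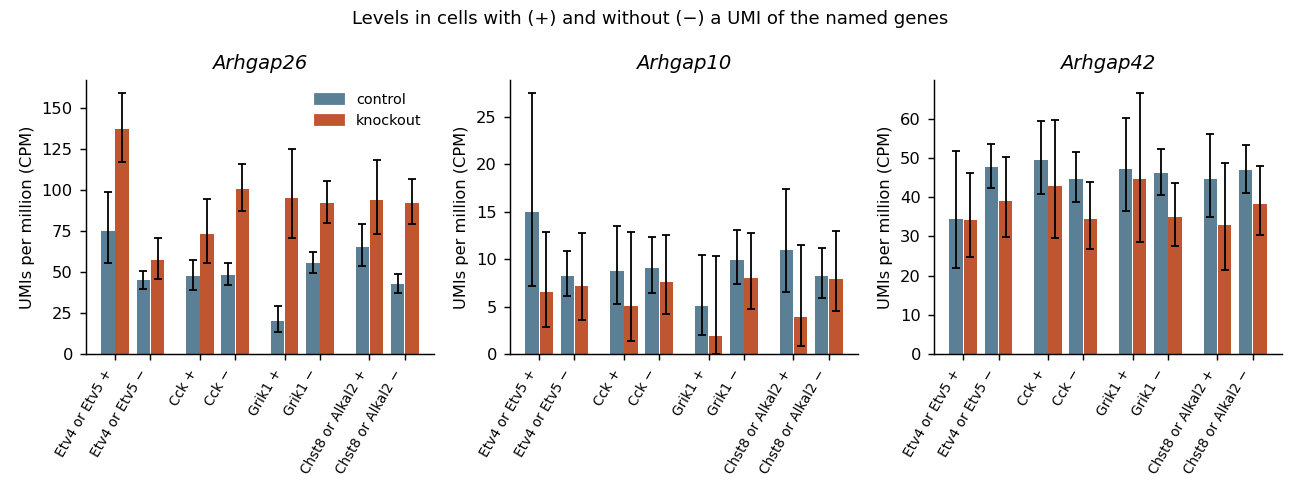
Level of *Arhgap26*, *Arhgap10* and *Arhgap42* in CPM (the axes differ) in control and knockout cells with (+) and without (−) a UMI of *Etv4* or *Etv5*, *Cck*, *Grik1*, and *Chst8* or *Alkal2*, with exact 95% counting intervals. *Arhgap26* is lowest in control cells with *Grik1* (20.3 CPM) and highest in knockout cells with *Etv4* or *Etv5* (137 CPM), while *Arhgap42* stays between 32.9 and 49.4 CPM in all 16 groups shown.

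Each library was also divided into cells with a UMI of *Cck* only, *Grik1* only, *Chst8* or *Alkal2* only, several of these or none. *Arhgap26* was higher in the knockout in each of the 5 classes, the contrast on which it was chosen. The intervals overlapped for *Cck* only, at 41.0 to 65.4 CPM in the control and 49.8 to 99.4 CPM in the knockout. They also overlapped for *Chst8* or *Alkal2* only, at 58.0 to 93.7 and 63.4 to 124 CPM. The lowest level was 16.1 CPM, in control cells with *Grik1* only, and the next were 43.1 CPM with several markers, 49.0 CPM with none and 52.2 CPM with *Cck* only, which did not differ beyond their intervals. Control cells with *Chst8* or *Alkal2* only had 74.3 CPM, level with the 71.5 CPM of knockout cells with *Cck* only. The other knockout classes ran from 87.3 to 103 CPM, with overlapping intervals. *Arhgap42* was lower in the knockout in 4 of the 5 classes and at 46.2 and 48.2 CPM in the cells with several markers.

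The genes whose log2(CPM + 10) ran most like *Arhgap26* over these 10 groups were *Lgmn* (Pearson r = 0.945), a lysosomal protease gene, *Dnaja3* (0.943), a mitochondrial co-chaperone gene, *Gm50431* (0.919), *Ormdl3* (0.903), a regulator of sphingolipid synthesis, and *Slc25a3* (0.902), the mitochondrial phosphate carrier gene. Their own ratios between the libraries lay between 1.19 and 1.53. *Etv5* was at 0.864 and *Fgf1* at 0.822 (rank 29), with *Gm5820* at 0.772, 9630014M24Rik at 0.743 and *Etv4* at 0.728 (rank 125). *Arhgap42* was at -0.67 and *Arhgap10* at 0.068. *Arhgap10* ran most like *Nob1* (0.948), *Tenm4* (0.910) and *Ppp4r3a* (0.900), and *Arhgap42* most like *Zbtb1* (0.970), *Prpf3* (0.945) and *Zbtb6* (0.936). These correlations are over 10 groups of cells from 2 libraries among 9438 genes, and the points of a library share its cells, depth and genotype. *Arhgap26* was chosen as higher in the knockout, so genes far higher in that library run with it through that choice. Genes lower in the knockout run against it in the same way. The correlations with *Arhgap26* and their ranks are therefore a description.

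The rest of the RhoA-family pathway was described by lists of genes. *Arhgap26* was chosen for its difference and these genes were not, so its standing among them is not a result. Over all tested genes, 2.73% were called higher and 1.66% lower. At these shares few or no calls fall in lists this short, so a count of 0 below is not a result about a list. Intervals that leave out 1 are common, with 10.9% of tested genes wholly above 1 and 9.43% wholly below. Of 51 other RhoGAP genes in the files, 25 reached 100 UMIs, and 0 of these passed 1.5-fold in either direction. Their ratios ran from 0.722 to 1.15 with a median of 0.927, beside 1.00 over all genes. *Arhgap32*, which acts on RhoA, Rac1 and Cdc42 at synapses, was at 248 and 285 CPM (ratio 1.15, 1.05 to 1.25), and *Arhgap5*, a p190 RhoGAP, was at 1.09 (0.960 to 1.25). *Srgap3*, a RhoGAP with an inverse F-BAR domain that binds Slit receptors, was at 1010 and 841 CPM (0.832, 0.794 to 0.873), and *Bcr* was at 0.814 (0.711 to 0.929).

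Among the GTPases themselves, 14 of 23 genes reached 100 UMIs, with a median ratio of 1.02. Beside 2.73% of all genes higher and 1.66% lower, 2 passed 1.5-fold upwards and 0 downwards. These were *Rhot2*, which encodes a mitochondrial GTPase that anchors transport motors (17.3 and 27.5 CPM, ratio 1.59, 1.17 to 2.15), and *Rhobtb1*, an atypical member that acts with cullin ligases (12.4 and 18.8 CPM, 1.51, 1.05 to 2.17). *Rnd2*, a constitutively GTP-bound regulator of neuronal migration, was at 1.40 (1.09 to 1.79). *Cdc42*, a substrate of the GRAF proteins, was at 203 and 192 CPM (0.947, 0.855 to 1.05), and *Rhof* was at 0.837 (0.661 to 1.05).

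The exchange factors (RhoGEFs), which load these GTPases with GTP and so oppose RhoGAPs, numbered 68 with 36 tested, and 0 passed 1.5-fold in either direction (median 0.961). The highest were *Arhgef40* at 1.40 (1.18 to 1.66) and *Arhgef3*, which acts on RhoA and RhoB, at 1.30 (1.14 to 1.48). The lowest by its interval was *Arhgef12*, a RhoA exchange factor coupled to G proteins and plexins, at 0.879 (0.826 to 0.935). Of 29 effector genes 23 were tested and 0 passed 1.5-fold (median 0.986). *Cit*, the citron kinase gene, was at 361 and 459 CPM (1.27, 1.19 to 1.36) and *Diaph1*, a formin gene, at 1.32 (1.05 to 1.64). *Iqgap1*, a scaffold that binds active Cdc42 and Rac1, was at 146 and 98.3 CPM (0.674, 0.587 to 0.772), just inside the limit, and *Rock2*, a RhoA-activated kinase, was at 0.880 (0.793 to 0.975).

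Of 14 partners of GRAF proteins and related membrane-remodelling genes, 12 were tested and 0 passed 1.5-fold (median 0.956). *Ptk2*, which encodes focal adhesion kinase, was at 116 and 133 CPM (1.15, 1.01 to 1.30) and *Amph*, which encodes the BAR-domain protein amphiphysin, at 1.13 (0.961 to 1.32). The endophilin genes *Sh3gl2* and *Sh3gl3* were at 0.768 (0.706 to 0.835) and 0.792 (0.675 to 0.926). The 4 tested of 7 genes listed as Capicua targets were all past 1.5-fold, at *Etv4* 36.0, *Etv5* 4.73, *Vgf* 3.99 and *Spred1* 1.73. The study named *Etv4*, *Etv5* and *Vgf* from these same cells, so this count is not independent of them. *Etv4*, on 13 control and 196 knockout UMIs, passed the UMI filter only through the knockout, so the filter fixed that it was called. Over all tested genes, 2.73% were called higher. The untested genes of the list had few UMIs. *Spry4* was at 57.3 (9.34 to 2356), *Etv1* at 2.57 (1.12 to 5.94) and *Dusp6* at 1.19 (0.193 to 5.59). *Spred1*, an inhibitor of Ras signalling, had a ratio (1.40 to 2.14) that overlapped that of *Arhgap26*.

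**Figure D5:**
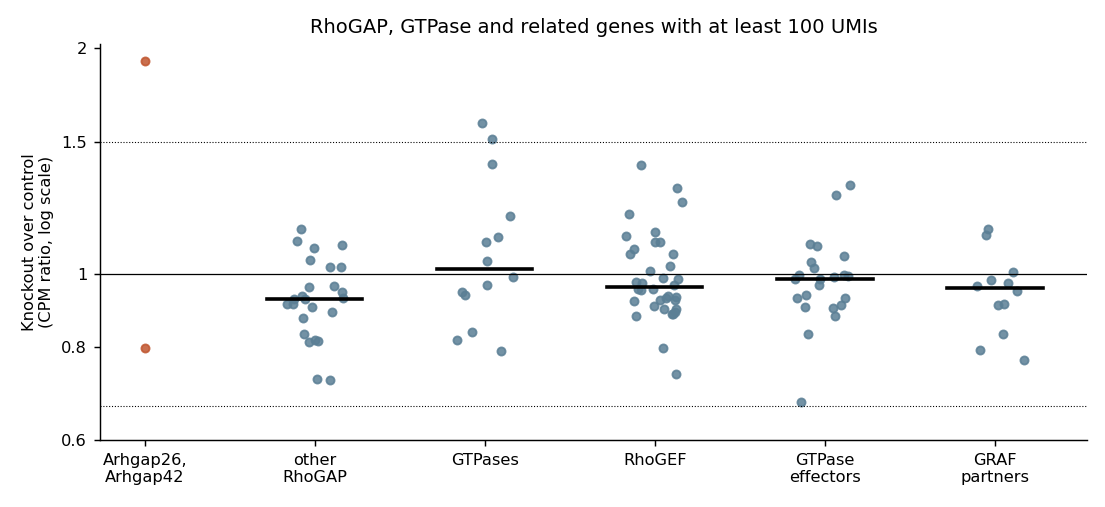
Ratio of knockout over control on a log scale for *Arhgap26* and *Arhgap42* and for tested genes of 5 lists, each point a gene, with list medians as bars and dotted lines at 1.5-fold in either direction. *Arhgap26* at 1.92 was chosen for its difference, *Rhot2* is the highest gene of the lists at 1.59 (1.17 to 2.15), and *Arhgap42* at 0.796 lies within the range of the other RhoGAP genes.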

How the data were processed

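CR cells of the hippocampus were captured with a 10x 3′ v3.1 kit, and the authors deposited the UMI count per gene for every barcode, unnormalized and before cell calling (16336796 UMIs in the control and 6777071 in the knockout). Sources differ on the upstream software. The methods name the mm10 reference, the submitters' processing notes name Cell Ranger 8.0.1 and mm39, and the matrix header Cell Ranger 4. Whether intronic reads were counted is not given in the sources used here. Positions are from GENCODE M21 (GRCm38), which held 32235 of the 32285 gene identifiers.

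Cells were barcodes with at least 2000 UMIs and 5 *Reln* UMIs (1003 of 1011 and 390 of 406 barcodes with 2000 UMIs). They held 42.7% and 43.3% of their library's UMIs, 6601724 and 2765943 of them outside mitochondrial (mt-) and ribosomal (Rpl, Rps, Mrp) genes. The mitochondrial share was 2.98% and 3.62%. Doublets were not removed. Values in thinned cells come from a single random draw, and their intervals leave out the error of that draw. UMIs were summed per group of cells and scaled to CPM, with exact Poisson intervals for levels, exact conditional binomial intervals for ratios, conditional odds-ratio intervals for ratios of ratios, and Clopper-Pearson intervals for shares (95%, counting error only). Python 3.11.15, numpy 2.4.6, scipy 1.17.1 and matplotlib 3.10.9 were used, and the steps were tested on simulated data.

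The members and gene lists were chosen with earlier results of these data known. Named genes were the members, the 3 neighbours, the 2 highest and 2 lowest of each list by the interval bound nearer to 1, list genes past 1.5-fold, and the genes most like each member. No replicated test was possible with 1 library per genotype. Some named genes of these lists are not reported here.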

Additional observations from a re-analysis of the deposited data

Results flagged for a closer look

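A difference of *Arhgap26* by *Grik1* was resolved in the control and not in the knockout. Control cells with *Grik1* were lower (ratio 0.366, 0.239 to 0.540) and knockout cells with *Grik1* were at 1.03 (0.746 to 1.41), so the ratio of the knockout over the control was 2.83-fold (1.68 to 4.81) larger in cells with *Grik1*. The interval covers counting error between 2 libraries, and the difference was not tested over mice. *Arhgap26* was chosen by its level in the knockout, and *Grik1* gave its largest such ratio among the splits made. In cells with Y-linked UMIs only it was 2.73 (1.39 to 5.34), and in cells with *Xist* UMIs only 2.61 (0.915 to 9.14). The control cells with *Xist* came from 1 female. In a single random draw of thinned cells, on 8 and 10 UMIs, it was 1.29, and with each cell weighted equally it was 3.26. *Grik1* RNA itself was lower in the knockout (48.1 against 79.7 CPM, ratio 0.604, 0.495 to 0.731). Whether cells with *Grik1* were the same subset in both libraries was not tested.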

How the results depend on the processing

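Of 142 values recomputed under alternatives, 133 stayed within the counting interval of the value reported (for counts of genes, within 1.5 times). The ratio of *Arhgap26* between the libraries ran from 1.67 to 2.45 over 12 alternatives, and only cells with *Xist* UMIs, at 2.45, lay outside its interval. In those cells, which in the control came from 1 female, *Arhgap10* was at 0.370. Thinning each cell to 2000 UMIs was a single random draw. It put *Arhgap42* between the libraries at 0.562 (25 knockout and 115 control UMIs). It put *Arhgap10* by *Etv4* or *Etv5* in the knockout at 2.82 (2 and 1 UMIs). *Arhgap26* in the thinned knockout cells was at 0.980 by *Cck* and 0.641 by *Grik1*, and its ratio of ratios for *Grik1* was 1.29. With each cell weighted equally, *Arhgap42* between the libraries was at 0.798. *Arhgap10* by *Etv4* or *Etv5* was then at 0.952, and the *Arhgap26* ratio of ratios for *Grik1* at 3.26. The cause of these shifts was not tested beyond these values and UMI numbers. *Arhgap10* by *Grik1* in the knockout had no thinned value, for want of UMIs. The *Arhgap42* ratio between the libraries had an interval that included 1 with at least 4000 UMIs per cell, with at least 1 *Reln* UMI and without cells rich in respiratory-chain transcripts. Genes past 1.5-fold numbered 1741 of 13328 with at least 20 UMIs and 91 of 5566 with at least 300, against 258 higher and 157 lower, and 204 and 203 with a size factor, where the median ratio was 0.977. The alternatives for the *Grik1* ratio of ratios (1.29 to 4.17) and for the split by neighbouring genes (2.26 to 3.29) were chosen after seeing the data. No paired analysis was possible because each genotype was 1 library, and leaving out a replicate was not possible for the same reason. Depth limits *Arhgap10* most, at 78 UMIs in all.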
